A study of Mus musculus with 26 samples.

Results

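The 10 genes described here carry arginine through arginase into ornithine and on into the polyamines, and they were chosen by symbol from the Ensembl identifiers of the count tables, 10 of 55401. They are Arg1 and Arg2, Odc1, Oaz1, Srm, Sms, Sat1, Slc7a1, Ass1 and Oat. Their RNA was measured in group 2 innate lymphoid cells (ILC2s) from mouse lung, tissue-resident lymphocytes without an antigen receptor that release type 2 cytokines. The study set out to find regulators of these cells in the genetically diverse Collaborative Cross strains, and the RNA libraries compare a strain of that panel with C57BL/6J and a drug with its vehicle.

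The 26 libraries fall into 6 groups, all of wild-type female mice whose lungs were not challenged. Naive ILC2s went straight from the sorter into lysis buffer, with 3 libraries from CC030/GeniUnc mice (CC030 from here on), an inbred line of the Collaborative Cross panel, and 3 from C57BL/6J mice, the strain of the reference genome. Each of these libraries came from 1 mouse, and these cells were sorted as lineage negative and positive for CD90, CD127, CD25 and ICOS. The other 20 libraries came from ILC2s of 5 CC030 mice, grown at 3000 cells per well with IL-33 and TSLP at 10 ng/mL each and human IL-2 at 100 U/mL. The cells of each mouse were split between AR420626 at 10 µM, an agonist of the free fatty acid receptor FFAR3, and DMSO vehicle, and were harvested on day 2 and day 6 of culture. Cultured cells were sorted before culture as lineage negative and positive for CD90, CD127 and ST2, and there was no C57BL/6J culture among the libraries. All libraries were made with the SMART-Seq v4 kit, which does not mark the strand of a transcript. In bulk libraries, fewer cells of a type and less RNA per cell cannot be told apart.

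Arginase splits arginine into urea and ornithine. Ornithine decarboxylase turns ornithine into putrescine, to which spermidine synthase and spermine synthase add aminopropyl groups, giving spermidine and spermine. The path is held in check by antizyme, which binds ornithine decarboxylase and sends it to the proteasome, and by spermidine/spermine acetyltransferase, which marks polyamines for export or breakdown. Arg1 is known as an enzyme that lung ILC2s hold in quantity without stimulation and that alternatively activated macrophages also make.

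Promoters of 4 of the genes are printed to show the start regions of members that stood far apart in level, namely Odc1, Oaz1 and Sat1 from the top 5 of the order described below and Ass1 from its end. Each runs 5′ to 3′ over 300 bases, 250 before and 50 after the transcript start, in RefSeq sequence of GRCm38.p6. They lie at chr12:17544623-17544922 on the plus strand (Odc1), chr10:80826406-80826705 on the plus strand (Oaz1), chrX:155216400-155216699 on the minus strand (Sat1) and chr2:31470020-31470319 on the plus strand (Ass1). Capitals mark matches on either strand to 4 motifs. These are TATAAA, which general transcription factors bind, CACGTG, the E-box that Myc can bind, GATAAG, bound by the family of Gata3, and CCAAT, bound by NF-Y. No match overlaps another in the printed windows.
Odc1: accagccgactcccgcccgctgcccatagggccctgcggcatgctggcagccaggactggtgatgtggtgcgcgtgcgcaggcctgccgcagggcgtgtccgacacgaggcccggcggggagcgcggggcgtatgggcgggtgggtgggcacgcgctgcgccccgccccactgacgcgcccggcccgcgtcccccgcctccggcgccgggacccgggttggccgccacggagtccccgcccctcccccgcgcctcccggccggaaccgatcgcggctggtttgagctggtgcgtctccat
Oaz1: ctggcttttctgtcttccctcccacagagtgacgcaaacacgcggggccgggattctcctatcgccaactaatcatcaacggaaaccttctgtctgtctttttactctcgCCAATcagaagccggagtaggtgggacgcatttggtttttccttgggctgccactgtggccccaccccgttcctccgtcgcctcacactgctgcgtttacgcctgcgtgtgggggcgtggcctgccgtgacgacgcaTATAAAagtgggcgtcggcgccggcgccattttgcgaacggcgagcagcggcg
Sat1: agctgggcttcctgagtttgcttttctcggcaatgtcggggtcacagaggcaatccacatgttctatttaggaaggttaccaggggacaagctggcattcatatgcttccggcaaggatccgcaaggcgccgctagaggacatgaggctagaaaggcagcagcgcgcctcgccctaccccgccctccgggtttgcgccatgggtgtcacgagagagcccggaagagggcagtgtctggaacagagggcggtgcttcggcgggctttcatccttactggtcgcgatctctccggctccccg
Ass1: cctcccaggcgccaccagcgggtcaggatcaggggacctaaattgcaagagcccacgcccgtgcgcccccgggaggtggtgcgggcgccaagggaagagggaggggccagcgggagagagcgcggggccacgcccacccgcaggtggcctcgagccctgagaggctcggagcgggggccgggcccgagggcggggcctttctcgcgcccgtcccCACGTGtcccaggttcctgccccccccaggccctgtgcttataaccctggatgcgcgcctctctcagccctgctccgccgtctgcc
The Odc1 window held none of the 4 motifs and 42 CG dinucleotides, more than or as many as 97.4% of the 32544 promoters in the table, whose median was 7. Oaz1 held TATAAA and CCAAT, which 13.6% and 37.4% of all promoters of this length hold on either strand. Ass1 held CACGTG, a match shared by 7.17% of promoters, and Sat1 held none of the 4. GATAAG, present in 7.32% of promoters, was in none of these windows. A match is a description of letters, not a bound site. An entry was found for 7 of the 10 members, and Arg1, Arg2 and Srm had none.

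In naive C57BL/6J ILC2s, Arg1 stood far above the other 9 genes. Arg1, the cytosolic arginase, lies at chr10:24915221-24927484 on the minus strand (GRCm38) and had 23585, 23090 and 23176 counts in the 3 libraries. After scaling by the trimmed mean of M values (TMM), its level was 1635 ± 271 CPM (counts scaled to a common library size of 1e6; SD, n = 3), which placed it 50th among 21897 protein-coding genes. Divided by the length of its exons, so that genes can be compared, it was 734 ± 122 CPM per kb. Arg2, the mitochondrial arginase at chr12:79130777-79156301 on the plus strand, had 110, 115 and 94 counts, or 5.28 ± 1.29 CPM per kb. Arg1 was thus 129-fold to 158-fold above Arg2 per kb in the same library and made up 99.5 to 99.6% of the arginase counts. The exons of Arg2, 1428 bp long, overlap those of the antisense genes Vti1b over 285 bp and Gm48780 over 116 bp. Reads from those stretches cannot be told apart without strand.

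Odc1, the gene of ornithine decarboxylase, and Oaz1, the gene of the antizyme that restrains it, were both abundant. After TMM scaling they were also the steadiest of the set. Odc1 (chr12:17544794-17551505, plus strand) had 2179, 2838 and 3622 counts and a level of 57.8 ± 6.24 CPM per kb. Oaz1 (chr10:80826656-80829290, plus strand) had 2982, 3939 and 4425 counts and a level of 102 ± 10.9 CPM per kb. Oaz1 was above Odc1 in each library, by a ratio per kb of 1.63 to 1.85. Their coefficients of variation across the 3 mice were 10.8% and 10.7%, against a median of 46.8% over the 6953 protein-coding genes with a mean of at least 10 CPM. As plain CPM without TMM factors, Arg1 was at 1622 ± 112, Oaz1 at 261 ± 36.5 and Odc1 at 199 ± 38.4 (SD, n = 3). The order of steadiness thus depended on the scaling.

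Of the synthases downstream, Srm was high and Sms low. Srm, spermidine synthase, had 1121, 751 and 2324 counts and 58.0 ± 24.6 CPM per kb, a mean close to that of Odc1. Sms, spermine synthase, had 129, 456 and 184 counts and 3.02 ± 2.23 CPM per kb. Srm was above Sms by 6.19-fold to 47.5-fold per kb, a wide range that came from the second library, where Sms was highest and Srm lowest. Sat1, the acetyltransferase of polyamine breakdown, had 3535, 4709 and 3261 counts and 97.9 ± 28.9 CPM per kb. Its ratio to Odc1 per kb lay between 1.11 and 2.04.

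The genes that feed and drain the path were lower. Slc7a1, which encodes a cationic amino acid transporter that imports arginine, had 141, 331 and 93 counts and 1.18 ± 0.848 CPM per kb over its 11530 bp of exon. Ass1, argininosuccinate synthase, which remakes arginine from citrulline, had 34, 13 and 64 counts and was the lowest of the set at 1.01 ± 0.572 CPM per kb. Oat, ornithine aminotransferase, which diverts ornithine towards proline and glutamate, had 268, 278 and 1882 counts and 21.2 ± 21.4 CPM per kb. The third library stood far above the other two libraries for Oat, whose coefficient of variation was 101%.

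From high to low per kb the order was Arg1, Oaz1, Sat1, Srm, Odc1, Oat, Arg2, Sms, Slc7a1 and Ass1. The ranges of the 3 libraries did not overlap between Arg1 and Oaz1, Odc1 and Oat, and Oat and Arg2, and they overlapped for each of the other 6 neighbouring pairs. Arg1, Oaz1, Sat1, Srm and Odc1 lay in the top 10% of protein-coding genes per kb, and the median percentile of the 10 genes was 91.7. With the length of the longest transcript in place of all exons, Sat1 moved ahead of Oaz1 and Odc1 ahead of Srm. The 10 genes together made up 0.252 to 0.257% of a library's counts, of which Arg1 alone took 59.2 to 69.2%.

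**Figure D1:**
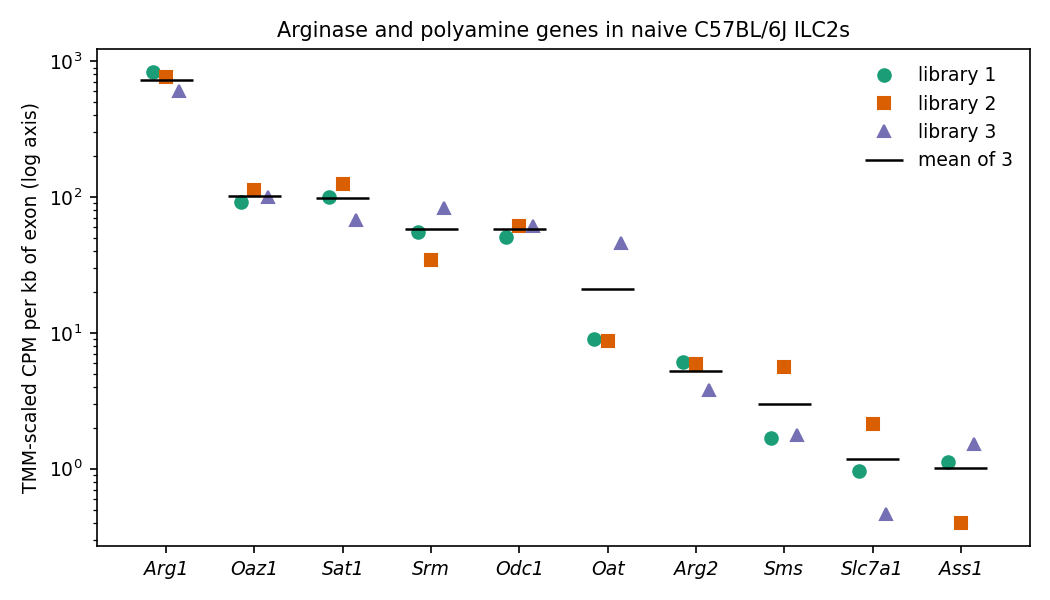
Level of each gene in naive C57BL/6J ILC2s as TMM-scaled CPM per kb of exon on a log axis, with 1 symbol per library and a line at the mean of 3. Arg1 stands above all others in every library, and Oat in library 3 stands apart from libraries 1 and 2.

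The sorted cells carried the markers of ILC2s, but the third C57BL/6J library also carried RNA of other lung cells. Markers listed for other cell types were counted in libraries 1 and 2 as well. Of 12 ILC2 markers, 11 averaged at least 10 CPM in C57BL/6J, among them Gata3, Il1rl1, Il7r and Il5, while Il13 was at 3.56 ± 2.86 CPM. The 12 macrophage and monocyte markers summed to 0.517 to 1080 CPM, and the top of that range was library 3. Lyz2 had 1, 167 and 14729 counts, Chil3 had 2, 0 and 1397, and the epithelial surfactant gene Sftpc had 1, 4 and 172153. Of the same macrophage list, Cd68 had 0, 0 and 268 counts, Csf1r had 0, 16 and 52, and Itgax had 1, 1 and 5. Marco was at 0 in all 3 libraries, and Adgre1, Mrc1, Retnla, Cd14, Mertk and Fcgr1 had between 0 and 2 counts in each. Arg1 was at 837, 765 and 600 CPM per kb in libraries 1 to 3 after TMM scaling, and between 683 and 782 CPM per kb without TMM factors. Oat, Srm and Ass1 were highest in library 3, and the part that other cells had in those values or in the values of Arg1 was not tested. T cell markers summed to 325 to 759 CPM, most of it Cd3g. Others on that list were highest in library 1, with 1270, 57 and 23 counts for Cd3d, 786, 210 and 1 for Trac, and 91, 1 and 0 for Cd4. Cd3e had 191, 86 and 35 counts, and Cd8a and Cd5 had 0 in each library. Mast cell and basophil markers summed to 205 to 667 CPM, with Cpa3 at 424 ± 260 CPM and Fcer1a at 19.6 ± 16.7 CPM. Of the same list, Mcpt4 had 1, 1 and 0 counts, and Mcpt8 and Ms4a2 had 0 in each library. Which cells these counts came from was not tested.

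Other genes of the path, taken from lists of 63 more symbols, filled in the picture in C57BL/6J. Eif5a, the translation factor that carries hypusine, a residue made from spermidine, was the most abundant of them at 531 ± 275 CPM per kb. Apip and Mat2b, of methionine salvage and S-adenosylmethionine synthesis, were at 97.7 ± 35.4 and 42.0 ± 14.1 CPM per kb. Amd1, the decarboxylase that supplies the aminopropyl group, was at 3.00 ± 0.346 CPM per kb, and its near copy Amd2 makes that value uncertain. Slc3a2, the heavy chain of amino acid exchangers, was at 86.9 ± 60.7 CPM per kb. Myc, a transcription factor known to act on Odc1, was at 28.3 ± 22.0 CPM per kb. The urea cycle genes Otc, Cps1 and Nags had 0 counts in each library, which allows at most 0.222 CPM (3 counts in the smallest library). Asl, which follows Ass1, was at 7.07 ± 5.03 CPM per kb, and the inducible nitric oxide synthase Nos2 had 0, 0 and 73 counts. Oaz1, Sms and Oat have related copies elsewhere in the annotation, so their counts are uncertain by whatever share of reads the copies took.

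The CC030 tables need a caution before the members can be read. C57BL/6J reads were aligned by the authors to mm10, whereas CC030 reads were aligned to an mm9 pseudogenome and then converted to mm10 coordinates. Naive CC030 libraries held 1324595 to 1524751 counts in genes, spread over 43527 to 46111 genes, against 13533363 to 15234305 counts over 15946 to 16553 genes in C57BL/6J. The 12 ILC2 markers summed to 279 to 319 CPM in naive CC030 and 55.1 to 331 CPM in culture, against 8262 to 10222 CPM in C57BL/6J, so the symbols that define ILC2s were low where the label names ILC2s. The macrophage list summed to 320 to 433 CPM in naive CC030. Cultured libraries held 227445 to 5320028 counts in genes, which were 2.06 to 11.1% of their reads, while 74.5 to 85.3% of reads fell outside any counted gene. In what follows, a count is a count under a gene symbol, and whether it is the RNA of that gene was not tested.

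Under their symbols, most of the 10 genes were lower in naive CC030 than in naive C57BL/6J. edgeR's quasi-likelihood test with Benjamini-Hochberg adjustment over 35551 genes called 6 members lower and 1 higher, and 3 did not pass 0.05. Of all genes tested, 12.2% were lower and 64.1% were higher, and the median log2 fold change of all genes was 7.03, so zero on this scale lies far below the middle of the genes. The median of the 10 members was -3.03. These shares depended on the filter. Requiring 10 counts in every library left 7223 genes, of which 1938 were lower and 1635 higher, with a median of 0.0219. Under that filter Oaz1, Odc1 and Sat1 were lower and Ass1 and Slc7a1 higher. With 3 mice in each strain, permuting the labels of 1 gene exactly cannot give a p below 0.10.

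Arg1 had 20, 15 and 5 counts in CC030, against 23585, 23090 and 23176 in C57BL/6J. No library of one strain came near those of the other, and the log2 fold change was -8.64 (SE 0.696, edgeR adjusted p = 0.000459). Arg2 had 10, 31 and 7 counts in CC030 and 110, 115 and 94 in C57BL/6J, from deeper libraries. After scaling the difference was within its error, with a log2 fold change of -0.65 (SE 0.719, edgeR adjusted p = 0.432). The excess of Arg1 over Arg2 in C57BL/6J was absent from the counts under the same symbols in CC030.

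Odc1 had 57, 55 and 30 counts in CC030 and a log2 fold change of -3.77 (SE 0.433, edgeR adjusted p = 0.00046). Oaz1 had 16, 56 and 20 counts, with a log2 fold change of -4.83 (SE 0.576). Srm had 17, 2 and 13 counts and Sat1 had 10, 36 and 20, with log2 fold changes of -4.81 (SE 0.803) and -5.38 (SE 0.586). Sms had 50, 29 and 63 counts and a log2 fold change of -0.35 (SE 0.700, edgeR adjusted p = 0.661), whose sign turned with DESeq2's size factors. Polyamine genes that were abundant in C57BL/6J thus had between 2 and 57 counts in CC030, beside a gene that was already scarce.

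Oat had 49, 16 and 34 counts in CC030 and a log2 fold change of -2.29 (SE 0.829, edgeR adjusted p = 0.0347). Without C57BL/6J library 3, the one with the high Oat count, it was -1.46 (edgeR adjusted p = 0.0552). The call of Oat was also lost without CC030 library 2 or 3. It was lost as well with DESeq2's size factors and with 10 counts required in every library. Ass1 was the member called higher, with 57, 46 and 65 counts in CC030 against 34, 13 and 64 in C57BL/6J, a log2 fold change of 2.79 (SE 0.724, edgeR adjusted p = 0.00779). Slc7a1 had 81, 124 and 98 counts in CC030 and a log2 fold change of 1.14 (SE 0.649, edgeR adjusted p = 0.144). DESeq2 called Slc7a1 higher as well, with a log2 fold change of 1.69 (DESeq2 adjusted p = 0.0299), and did not call Oat.

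**Figure D2:**
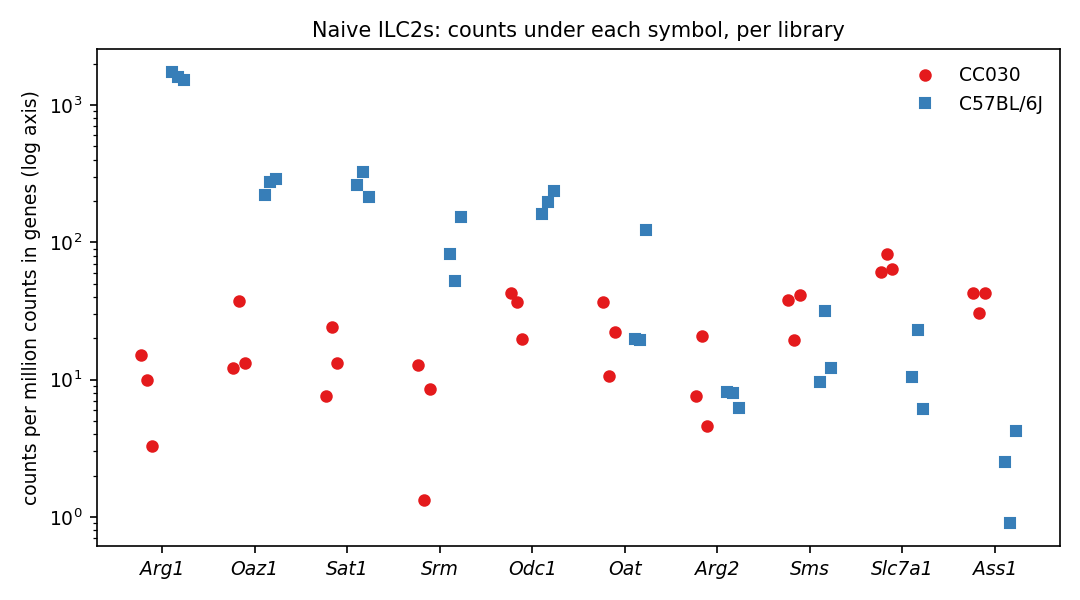
Plain CPM (without TMM factors) under each symbol in the 3 CC030 libraries (circles, left) and the 3 C57BL/6J libraries (squares, right) of naive ILC2s, on a log axis. Arg1 shows the widest gap between the strains, the strains overlap for Oat, Arg2 and Sms, and Slc7a1 lies apart on this scale although it did not pass the edgeR test.

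The remaining path genes went both ways. Of the 63 others, 61 were tested, and 24 were higher (39.3%) and 14 lower (23.0%) in CC030, with a median log2 fold change of 1.27, beside 64.1% and 12.2% of all genes tested and their median of 7.03. Of 12 tested genes of polyamine synthesis, Odc1, Srm and Sms included, 9 were lower and 0 higher, among them Mat2b (log2 fold change -3.90, SE 0.408) and Apip (log2 fold change -4.34, SE 0.534), both at an edgeR adjusted p of 0.00046. Eif5a, with 21, 50 and 23 counts in CC030 against 12688, 10535 and 34829 in C57BL/6J, had a log2 fold change of -7.06 (SE 0.650). Slc3a2 was lower by a log2 fold change of -3.97 (SE 0.559). Of 8 polyamine transporter genes, 7 were higher, in a comparison where 64.1% of all genes were, such as Slc22a3 with 96, 100 and 86 counts in CC030 against 0, 1 and 0 in C57BL/6J. Nos1, the neuronal nitric oxide synthase, had 192, 159 and 247 counts in CC030 and 0 in each C57BL/6J library.

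The rank of the members told the same difference without a scaling factor. The median percentile of the 10 genes per kb among protein-coding genes was 44.1 in naive CC030, against 91.7 in naive C57BL/6J. Arg1 lay at the percentile 28.5 in CC030 and 99.6 in C57BL/6J, and Ass1 at 92.4 in CC030 and 64.0 in C57BL/6J. In the cultured CC030 groups the median was 55.4 with AR420626 and 61.6 with vehicle on day 2, and 51.6 with AR420626 and 48.6 with vehicle on day 6. Across the 10 genes, which are not replicates, the mean count followed exon length with Spearman's rho of 0.766 in naive CC030 and of -0.01 in C57BL/6J. In culture rho was between 0.564 and 0.939.

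Olfactory receptor genes, which lymphocytes are not known to use, served as a yardstick. In naive CC030, Ass1 was the single member above the 95th percentile of 1135 such genes per kb. In naive C57BL/6J all 10 members were. Above that line in culture were no member with AR420626 on day 2, Srm and Oat with vehicle on day 2, Oaz1 with AR420626 on day 6, and Slc7a1 with vehicle on day 6. The olfactory genes themselves were not near 0 in naive CC030. Their median lay between 4.24 and 4.88 CPM per kb in its libraries and was 0 in C57BL/6J. The 95th percentile was 11.2 CPM per kb in naive CC030 and 0.0105 in naive C57BL/6J. Most members in CC030 thus lay within the range of counts under olfactory symbols, and whether they were expressed was not tested.

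**Figure D3:**
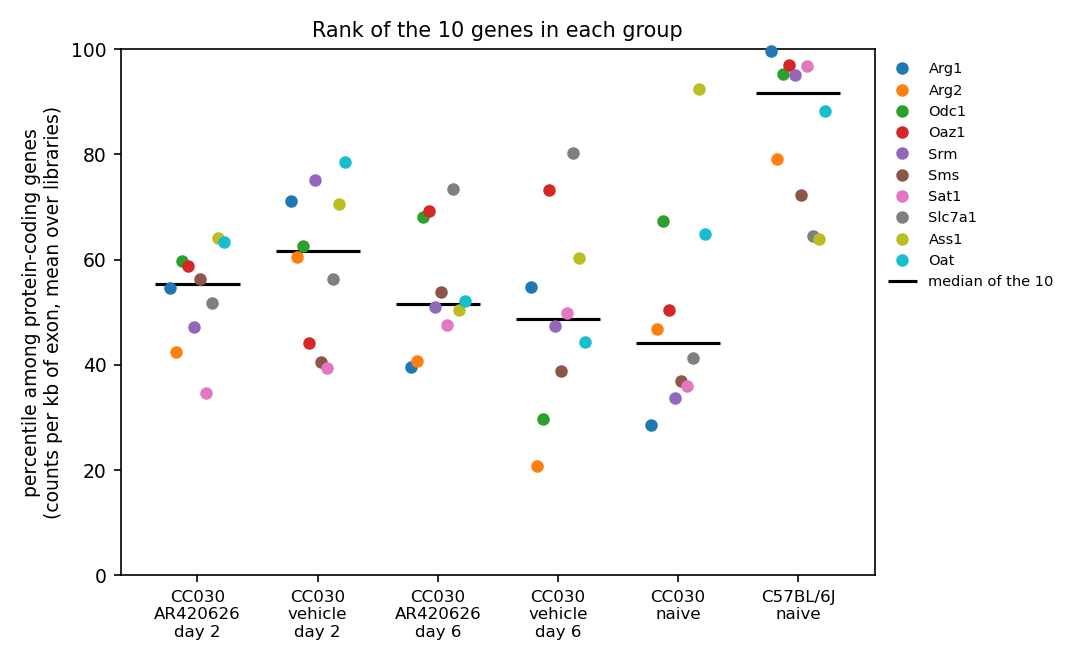
Percentile of each gene among protein-coding genes by counts per kb of exon, averaged over the libraries of a group, with a line at the median of the 10. The line is between 44.1 and 61.6 in the 5 CC030 groups and at 91.7 in naive C57BL/6J.

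A check of positions asked whether CC030 counts around each member matched C57BL/6J counts at the same place. For genes within 4 Mb of a member, log2 counts per exonic kb in a CC030 group were correlated with those in naive C57BL/6J, at no shift and at shifts of up to 3 Mb in steps of 1000 bp. A positive shift means that reads would land that far before the gene on the chromosome. The correlations are across neighbouring genes, which are not replicates, and are given as a description. Between C57BL/6J library 1 and the other two libraries, r at no shift lay between 0.717 and 0.914 for the 10 members, and the best shift was 0 for 8 of them and 1 kb or -1 kb for Odc1 and Sms. Between the day 6 CC030 groups and C57BL/6J, r at no shift lay between -0.18 and 0.38.

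The best shift is the one with the highest r, 0 included, so its r cannot lie below r at no shift. Sat1, without a shared shift, still had r of 0.229 with AR420626 and 0.232 with vehicle at its best shifts. For 6 members both day 6 groups had the same best shift within 25 kb. These groups share their mice and the C57BL/6J libraries they were set against. Around Oaz1 the best shift was 537 kb in both, with r of 0.50 with AR420626 and 0.563 with vehicle, against 0.0572 and 0.0494 at no shift. Around Odc1 it was -6 kb with AR420626 (r = 0.513) and -4 kb with vehicle (r = 0.607). At no shift r around Odc1 was 0.311 and 0.382 in that order, and the highest r more than 25 kb from the peak was 0.425 and 0.569. Around Srm the best shift was 625 kb (r = 0.397) and 626 kb (r = 0.436), in the same order. The highest r more than 25 kb away was 0.372 and 0.341. Around Ass1 it was 158 kb (r = 0.423) and 144 kb (r = 0.475). Around Arg1 it was 290 kb (r = 0.342) and 284 kb (r = 0.454), although the next best shift with AR420626 had an r of 0.335. In the 4 Mb window 6 members had a best shift shared by both groups within 25 kb, and with 8 Mb to each side 5 did, 4 of which (Odc1, Oaz1, Srm and Ass1) held the same shift in both windows. Sms, Sat1, Slc7a1 and Oat had none, and Arg2 only in the narrower window. Of the 3 other CC030 groups (naive and both day 2 groups), 3 had a best shift within 25 kb of those of both day 6 groups for Odc1, 2 for Oaz1, 1 each for Srm and Ass1, and 0 for Arg1 and Arg2. Naive CC030 had it for Odc1 alone.

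**Figure D4:**
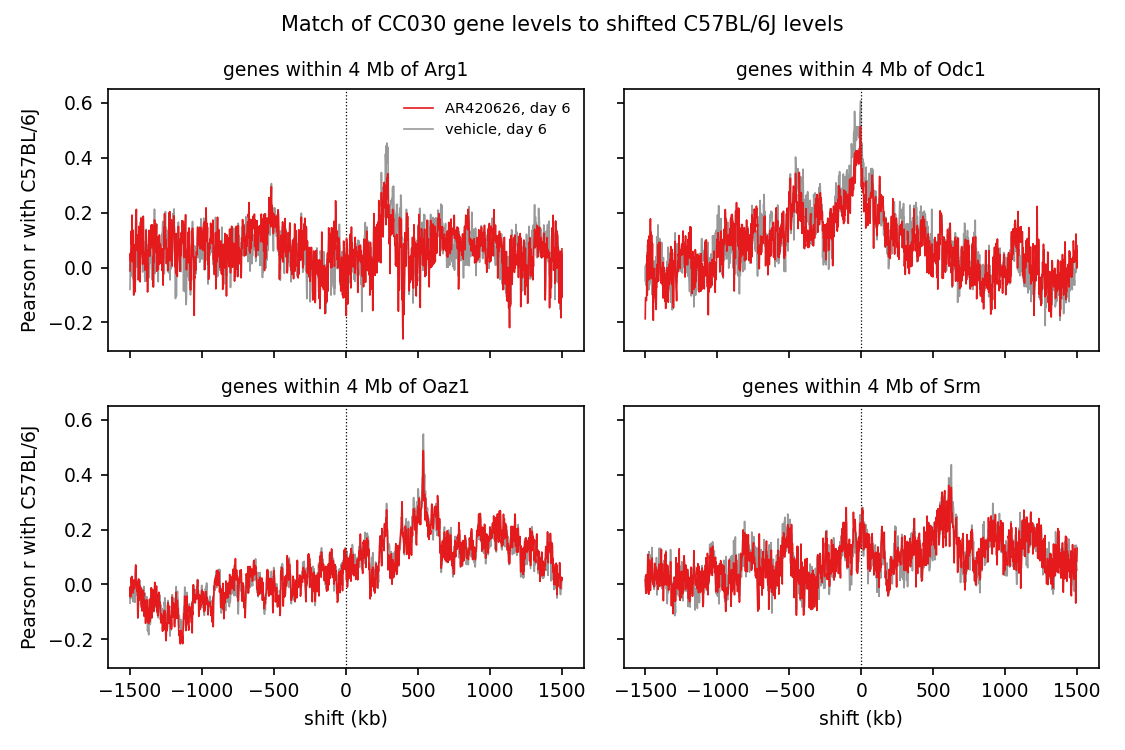
Pearson r between CC030 gene levels on day 6 and naive C57BL/6J levels moved by the shift on the x axis (kb), for genes within 4 Mb of Arg1, Odc1, Oaz1 and Srm, with AR420626 in red and vehicle in grey. The peak stands at 537 kb for Oaz1, near 0 for Odc1, near 625 kb for Srm and near 284 kb for Arg1, and the dotted line marks no shift.

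In culture, no member passed the test in any comparison of the deposited counts. AR420626 against vehicle on day 6 was tested for 9421 genes with mouse as a block, of which 3.3% were higher and 8.14% lower. Of the members 2 had counts enough to be tested, and both had an unadjusted p above 0.05. Slc7a1 had 51, 62, 30, 24 and 58 counts with AR420626 and 80, 51, 38, 166 and 92 with vehicle in mice 1 to 5, a log2 fold change of -0.35 (SE 0.287, edgeR adjusted p = 0.456). Oaz1 had 19, 11, 1, 17 and 17 counts with AR420626 and 5, 9, 14, 24 and 20 with vehicle, a log2 fold change of 0.28 (SE 0.620, edgeR adjusted p = 0.799). Both ranges overlapped between the treatments.

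Odc1 was the member whose day 6 values did not overlap as CPM. The share of all genes without overlap, or with all pairs in the same direction, was not counted. Odc1 had 10, 12, 15, 8 and 11 counts with AR420626 and 4, 8, 0, 4 and 0 with vehicle, or 9.44 ± 2.61 CPM against 1.65 ± 2.06 CPM (SD, n = 5 each, in culture as plain CPM without TMM factors). AR420626 was higher in 5 of 5 pairs, for which an exact two-sided sign-flip permutation test gives p = 0.0625, the smallest that 5 pairs allow. The counts were too low for the edgeR fit, and without a filter on low counts its log2 fold change was 2.32 (SE 0.870, edgeR adjusted p = 0.249). Arg1 had 0, 3, 2, 6 and 6 counts with AR420626 and 10, 7, 4, 10 and 0 with vehicle on that day. Arg2, Srm, Sms, Sat1, Ass1 and Oat had between 0 and 30 counts in every day 6 library, and their pairs pointed both ways.

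On day 2, AR420626 against vehicle was tested for 20865 genes, and 0% of them were called. The number with an unadjusted p under 0.05 was 403, and DESeq2 called 15, all lower. The 8 members tested had log2 fold changes between -1.14 (SE 0.823) for Srm and 0.07 (SE 0.578) for Sms, each at an edgeR adjusted p of 1.00. Odc1 had 26, 26, 24, 7 and 5 counts with AR420626 and 30, 35, 22, 17 and 12 with vehicle. As CPM it was higher with AR420626 in 5 of 5 pairs, yet its fitted log2 fold change was -0.25 (SE 0.541), so the direction on day 2 differed between the pairs of CPM and the fit, for a reason that was not tested. The same difference was seen for Slc7a1, higher as CPM in 5 of 5 pairs, at 65.6 ± 26.6 CPM with AR420626 and 46.0 ± 19.9 CPM with vehicle (SD, n = 5 each) and a fitted log2 fold change of -0.45 (SE 0.553). The AR420626 library of mouse 4 held only 227445 counts in genes, and 5 members (Arg1, Arg2, Oaz1, Srm and Sms) were at 0 in it. In the vehicle library of mouse 5, the deepest, Oaz1 had 186 counts, against 10 to 16 in the other 4 vehicle libraries of that day.

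Vehicle on day 6 against vehicle on day 2 was tested for 15819 genes, of which 13.6% were higher and 3.73% lower, and 5 members were among those tested. The farthest from 0 was Oat, with 0, 5, 11, 5 and 1 counts on day 6 and 22, 29, 37, 19 and 5 on day 2, a log2 fold change of -1.60 (SE 0.759, edgeR adjusted p = 0.152). Without mouse 5, Slc7a1 was called higher on day 6 (log2 fold change 1.21, SE 0.456, edgeR adjusted p = 0.0396), against 0.80 (SE 0.579, edgeR adjusted p = 0.343) with all mice. Arg1 had 10, 7, 4, 10 and 0 counts on day 6 and 13, 27, 19, 23 and 6 on day 2, and was not in the edgeR fit. It was lower in 5 of 5 pairs as CPM (exact sign-flip p = 0.0625, the smallest possible). Arg2, Odc1, Sms and Oat were also lower in 5 of 5 pairs, with the same p. Odc1 was at 1.65 ± 2.06 CPM on day 6 and 14.7 ± 8.48 CPM on day 2. The share of all genes lower in 5 of 5 pairs was not counted. Whether AR420626 acted differently on day 6 than on day 2 was tested for 23141 genes, of which 0.0519% were called, with 0 members among 9 tested (edgeR, 1 member with an unadjusted p under 0.05; DESeq2 also called 0). That member was Odc1, at a log2 difference of 2.37 (SE 0.959, edgeR adjusted p = 0.868).

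The other genes of the path were read against the shares of all genes. Of the 63 other symbols, 24 were tested on day 6, where 1 was higher and 1 lower with AR420626 (4.17% each), beside 3.3% and 8.14% of all genes tested. Slc7a7, a light chain of an exchanger of cationic amino acids, was higher with a log2 fold change of 1.42 (SE 0.461, edgeR adjusted p = 0.0416), and lost the call when any single mouse was left out. Atp13a3, a polyamine transporter of the P5B type, was lower with a log2 fold change of -1.17 (SE 0.247, edgeR adjusted p = 0.00159). Between vehicle on day 6 and day 2, 4 of 45 tested were higher (Ahcy, Atp13a3, Nos3 and Gamt), or 8.89%, beside 13.6% of all genes. Ahcy, which clears S-adenosylhomocysteine, had a log2 fold change of 7.64 (SE 1.26). The calls of Atp13a3, Nos3 and Gamt were lost when mouse 1, 2, 3 or 4 was left out.

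Over part of the exons of Odc1, Arg1 and Ass1, the shifts pointed to other symbols at the places where reads would land. In every day 6 library, Gm36862 had more counts than Odc1 and Enpp1 more than Arg1, as raw counts not divided by exon length. Earlier, Odc1 had more counts than Gm36862 in 2 of 3 naive CC030 libraries and, on day 2, in 3 of 5 with AR420626 and 4 of 5 with vehicle. At shifts of -6 to -4 kb the exons of Odc1 overlapped Odc1 by 219 to 487 bp and Gm36862 by 103 to 299 bp, a processed transcript without an assigned role at chr12:17553768-17578690. At most 14.3% of the exon length of Odc1 met Odc1 itself, and at most 8.78% met Gm36862. In naive CC030 Gm36862 had 31, 34 and 34 counts, and no read of the 3 naive C57BL/6J libraries was counted for it. On day 6 it had 33, 32, 40, 25 and 30 counts with AR420626 and 91, 91, 52, 186 and 118 with vehicle. As CPM this was 27.0 ± 5.96 with AR420626 and 54.9 ± 9.59 with vehicle (SD, n = 5 each), lower in 5 of 5 pairs without overlap, with a log2 fold change of -1.17 (SE 0.287, edgeR adjusted p = 0.00588). Of all genes tested on that day, 8.14% were called lower. The share of all genes without overlap, or with all pairs lower, was not counted. Without mice 4 and 5 the log2 fold change of Gm36862 was -0.86 (edgeR adjusted p = 0.243). The pairs of Odc1 and of Gm36862 ran in opposite directions on day 6, and which symbol holds the RNA of Odc1 was not tested. On day 2 Gm36862 had a log2 fold change of 0.45 (SE 0.658, edgeR adjusted p = 1.00), with 152 counts under AR420626 and 134 under vehicle in mouse 5 alone. The difference between the days was -1.82 (SE 0.937, edgeR adjusted p = 0.949).

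For Arg1 the symbol at the day 6 shift was Enpp1, although neither naive CC030 nor the day 2 groups had their best shift within 25 kb of both day 6 values. The wider window gave 263 kb with AR420626 and 274 kb with vehicle on day 6, near the narrower window's values but not all within 25 kb of them. In the 4 Mb window the best shift was -1563 kb in naive CC030, -2875 kb with AR420626 and 261 kb with vehicle on day 2. At 284 to 290 kb its exons overlapped those of Enpp1, which encodes an enzyme that splits extracellular nucleotides, by 173 to 576 bp at 5 of the 7 shifts in that range. Enpp1 (chr10:24637914-24712159) had 113, 85 and 131 counts in naive CC030 and 0 in each C57BL/6J library. On day 6 it had 154, 154, 259, 112 and 192 counts with AR420626 and 483, 313, 307, 923 and 382 with vehicle, or 148 ± 57.5 CPM against 243 ± 32.3 CPM (SD, n = 5 each). The log2 fold change was -0.91 (SE 0.252, edgeR adjusted p = 0.0151), and all 5 pairs were lower with AR420626, but without mouse 1 or mouse 4 the adjusted p was 0.112 or 0.110. At most 25.9% of the exon length of Arg1 met Enpp1. For Ass1 the symbol at the shift was Hmcn2, which did not pass the test on day 6 (log2 fold change 0.35, SE 0.373, edgeR adjusted p = 0.569). At most 16.4% of the exon length of Ass1 met Hmcn2. For Oaz1 and Srm no annotated exon lay at the shifted place. Whether the counts of Enpp1, Gm36862 or Hmcn2 come from the members was not tested.

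**Figure D5:**
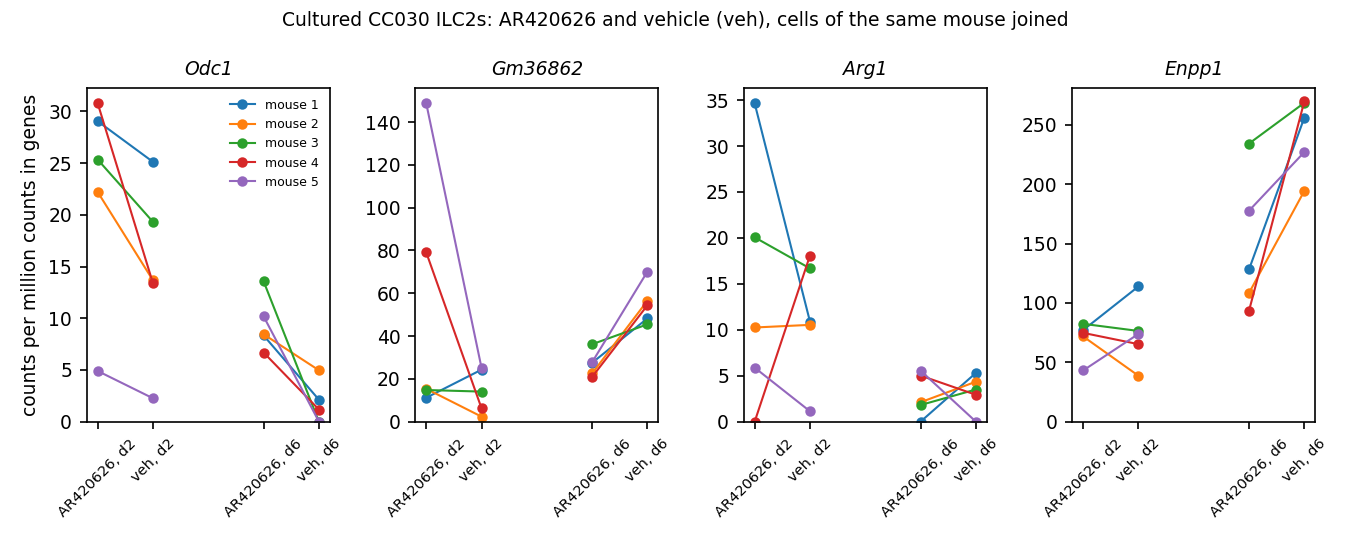
Plain CPM of Odc1, Gm36862, Arg1 and Enpp1 in cultured CC030 ILC2s, with AR420626 left of vehicle (veh) on day 2 and day 6 and a line joining cells of the same mouse. On day 6 all 5 lines run down from AR420626 to vehicle for Odc1 and up for Gm36862 and Enpp1, while those of Arg1 cross.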

How the data were processed

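The deposited tables hold counts of reads by gene, not normalized. Per the methods, the authors trimmed reads with fastp, aligned them with STAR (CC030 to an mm9 pseudogenome, converted to mm10 with lapels, and C57BL/6J to mm10) and counted with HTSeq, with an annotation not stated in the sources used here. Of 55401 identifiers, 55141 had a symbol and position in GENCODE vM21. Counts were scaled by TMM, filtered by filterByExpr (minimum count 10, minimum total 15) and tested with edgeR 4.0.16 in R 4.3.3 (quasi-likelihood, robust, Benjamini-Hochberg, 0.05), with mouse as a block in culture, since the study split the cells of each mouse. Deviations of same-mouse libraries correlated at r of -0.13 to 0.35 on day 2 and -0.10 to 0.30 on day 6. Alternatives were DESeq2 1.42.0, its size factors, other filters, the block, and leaving out replicates. Steps were tested on simulated data. Members and lists were chosen with earlier results of these data known. All members were named, plus, from each list, up to 4 genes highest per kb in C57BL/6J or with the smallest p, and genes that the position check pointed to. Amd1, Amd2, Nos2, Otc, Cps1 and Nags were named after their values were seen. One result for a gene of the lists is not reported here.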

Additional observations from a re-analysis of the deposited data

Results flagged for a closer look

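Of 40 groups of 5 cultured libraries checked (10 genes in 4 groups), 1 held a library far from the others. Sat1 was at 26.3 CPM (30 counts) in the vehicle library of mouse 3 on day 2, where the next highest library was at 7.86 CPM and the lowest at 0.752 CPM. Chance alone marks about 1 in 20 such groups. No member passed the test of a difference in the AR420626 effect between day 6 and day 2.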

How the results depend on the processing

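In the strain comparison, requiring 10 counts in every library gave 1635 genes higher and 1938 lower (45.8% of calls higher, against 84.1%), with 2 members higher and 3 lower. DESeq2 called 2 members higher, and with the replicate number as a block 0 were, since Ass1 was lost (log2 fold change 2.96, edgeR adjusted p = 0.0906); those numbers pair no animals across strains. Sms turned to 0.21 with DESeq2 or its size factors and to 0.46 with 10 counts in every library. For AR420626 on day 6, the genes higher were 120 without a filter, 510 with 10 counts in every library and 152 without mice 4 and 5, a setting chosen after seeing the data. The genes lower were 509 and 209 under the last 2 of these, and Slc7a1 turned to 0.022 without mice 4 and 5. Without the replicate block 281 were higher and 714 lower. On day 2, no filter gave 1 gene higher and 14 lower, DESeq2 gave 15 lower, and Gm36862 turned to -0.11 without mice 4 and 5. For vehicle on day 6 against day 2, the genes higher were 1152 with 10 counts in every library, 1416 without the replicate block and 3529 without mice 4 and 5, and the genes lower were 1156 with DESeq2 and 1247 with 10 counts in every library. For the difference between the days, DESeq2 gave 49 higher and 26 lower, no block 1 and 1, and leaving out mice 4 and 5 43 and 16; genes lower were 7 without a filter and 0 with 10 counts in every library. Leaving out 1 library or mouse gave 1 to 2 members higher between strains and Sms from -1.07 to 0.32; on day 6, 192 to 366 genes higher, 412 to 855 lower and Oaz1 from -0.22 to 0.82; on day 2, Sms from -0.075 to 0.41 and Gm36862 from -0.13 to 0.95; for vehicle over time, 820 to 3943 higher, 174 to 1433 lower and 0 to 1 members higher; and for the difference between the days, 0 to 19 higher and 0 to 14 lower. The causes of these moves were not tested. With the longest transcript as length, Arg1 was at 1107, Odc1 at 89.2 and Sat1 at 201 CPM per kb in C57BL/6J. Of the other results under an alternative, 175 counts stayed within 1.5 times, and of the values of a single gene under a single alternative 355 kept their direction and call, 41 lost the call and 7 gained one, the same gene counting once for each alternative. On day 6, 2 of the 10 members had counts enough for the test of AR420626, and for the others a difference was not detectable at this depth.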
